A study of Mus musculus with 20 samples.

Results

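The genes described here are *Mettl16*, *Mat2a* and other genes that write, read or remove N6-methyladenosine (m6A) in RNA or supply the methyl donor for it. There were 10 of them (*Mettl16*, *Mat2a*, *Mat2b*, *Mettl3*, *Mettl14*, *Wtap*, *Virma*, *Ythdc1*, *Ythdf2* and *Alkbh5*) among the 25655 genes of the count tables. They were taken by name, and the list was drawn up because *Mettl16* was nearly absent from the libraries of estradiol-treated mice. The level of *Mettl16* in those libraries is therefore given as a description, with no test. The mice were female C57BL/6J, were ovariectomized (OVX) or sham-operated at 8 weeks of age, and all carried a subcutaneous pellet. The sham + v group had the sham operation and a vehicle pellet, and the OVX + v group was ovariectomized with a vehicle pellet. The OVX + E2 group was ovariectomized with a pellet of 50 µg of estradiol, and the OVX + RAL group with one of 2.4 mg of raloxifene, a selective estrogen receptor modulator, each for release over 60 days. RNA of the utricle, a gravity-sensing organ of the inner ear, was sequenced 4 weeks after the operation in 20 libraries, 5 per group, which are named here by their library numbers 1 to 20 (sham + v from 1 to 5, OVX + v from 6 to 10, OVX + E2 from 11 to 15, OVX + RAL from 16 to 20).

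m6A is the most common internal modification of mRNA. Most of it is placed by a complex in which METTL3 is the catalytic subunit, METTL14 its RNA-binding partner, WTAP the adaptor and VIRMA a large scaffold. METTL16 is a separate methyltransferase that modifies U6 small nuclear RNA and hairpins in the 3′ UTR of *Mat2a* mRNA. All of these enzymes take the methyl group from S-adenosylmethionine (SAM), which is made in most tissues by MAT2A, the catalytic subunit of methionine adenosyltransferase, together with MAT2B, its regulatory subunit. When SAM is scarce, METTL16 is known to stay on the *Mat2a* hairpins and to promote removal of the last intron, so that more mature *Mat2a* mRNA is made. YTHDC1 and YTHDF2 bind m6A in the nucleus and in the cytoplasm, and ALKBH5 removes it.

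The hairpins are shown because they are the stretch of *Mat2a* that METTL16 recognizes, and because the reads of this library kit come from the same end of the mRNA. The 3′ UTR of the canonical *Mat2a* transcript (GENCODE annotation of GRCm39, chromosome 6, minus strand, last exon) is 1494 bases long. It was searched on the transcript strand for TACAGAGAA and TACAGAAAA, the DNA letters of the METTL16 recognition sequence, and held 6 copies, 5 of the first form and 1 of the second. Each is given 5′ to 3′ in a stretch of 30 bases, with the recognition sequence in capitals.
Site 1, chr6:72411217-72411246: tggcgtaggtTACAGAGAAgccttcaagct
Site 2, chr6:72410433-72410462: ccttgtgataTACAGAGAAgtcacagggca
Site 3, chr6:72410254-72410283: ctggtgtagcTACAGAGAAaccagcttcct
Site 4, chr6:72410139-72410168: atggcgtaagTACAGAGAAgccatcacctc
Site 5, chr6:72410028-72410057: caaggtgtccTACAGAAAAaccttgggtta
Site 6, chr6:72409920-72409949: gctggtgtggTACAGAGAAgccagcttgtt

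The recognition sequence began 40 bases after the stop codon in site 1, and between 824 and 1337 bases after it in sites 2 to 6. Within the 30 bases shown, the longest uninterrupted run of letters before it that was complementary to letters after it, by A-T and G-C pairs alone, was 3 bases in site 1, 5 bases in sites 2, 3, 4 and 6, and 6 bases in site 5. Of the 8332 canonical 3′ UTRs of at least the same length, 373 (4.48%) had 1 copy or more in their first 1494 bases, and the most in any gene other than *Mat2a* was 2. Over 3′ UTRs of any length and in their whole length, the most in another gene was 4. The canonical 3′ UTRs of the other 9 genes held 0 copies in their whole length. The last intron of *Mat2a* (chr6:72411379-72411963, 585 bases) lies upstream of all 6 sites. Reads from the 3′ end are common to the spliced and the intron-retaining transcript, so the counts give their sum.

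**Figure D1:**
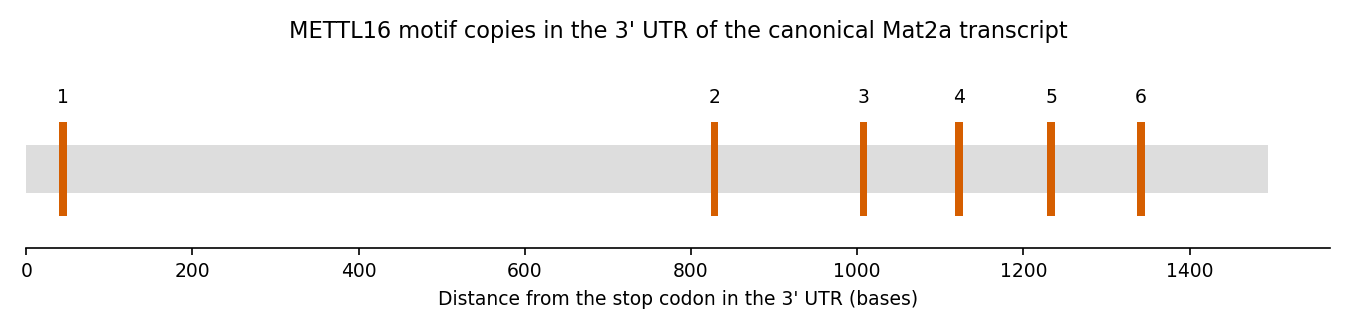
Position of the 6 copies of the METTL16 recognition sequence in the 3′ UTR of *Mat2a*, drawn to scale as the distance in bases from the stop codon. The grey bar is the 3′ UTR and each orange mark is 1 copy, numbered as in the text. Site 1 lies alone near the stop codon and sites 2 to 6 begin 824 bases or more after it.

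The libraries held from 1123053 to 2081747 counts, with the lowest totals in the OVX + E2 group (1123053 to 1507667). Of 9533 genes with a mean of at least 10 CPM (a gene's count in proportion to all counts of its library) over the 20 libraries, the share with at most 3 counts was 11.2% to 24.5% in sham + v libraries, 11.9% to 16.1% in OVX + v, and 19.2% to 37.9% in OVX + E2. In OVX + RAL it was at least 13.4% and stayed below the highest OVX + v value. Libraries 13 (35.8%) and 14 (37.9%) of the OVX + E2 group stood apart. A count of at most 3 is taken here as not detected. By that measure 18 of the 50 values of the 10 genes in the OVX + E2 group were not detected, against 8 of 50 in sham + v, 3 in OVX + v and 5 in OVX + RAL, and libraries 13 and 14 accounted for 11 of the 18. The 18 include all 5 *Mettl16* values of OVX + E2, on which the list was chosen, so this contrast was partly fixed in advance. *Mettl16* is also among the undetected genes of libraries 13 and 14. Markers of hair cells, of supporting and otoconial cells and of dark cells were detected in every group, as the label of the tissue requires. Of 6 hair cell markers, 5 were detected in OVX + v and all 6 in each other group. Of 3 leukocyte markers, 2 were detected in sham + v, OVX + v and OVX + E2 and 3 in OVX + RAL, with summed levels of up to 80.8, 108, 70.3 and 115 CPM, and *Ptprc* had 0 counts in the first 3 of these groups. Both blood markers were detected in every group, at median summed levels of 662, 995, 517 and 761 CPM, and the medians of 3 skeletal muscle markers were 0.663, 48.2, 8.02 and 25.8 CPM. All 3 of 3 Schwann cell markers were detected in every group, and their summed level was 1340 to 3515 CPM in sham + v, 1480 to 2401 in OVX + v, 1911 to 3535 in OVX + E2 and 1411 to 1816 in OVX + RAL, with medians of 1614, 2020, 3330 and 1592 CPM. The median summed levels of 6 hair cell markers were 751, 564, 570 and 404 CPM. The 3 bone markers were detected in every group, with median summed levels of 231, 64.1, 103 and 194 CPM. Of the melanocyte markers, *Dct* was detected in every group and *Tyrp1* had 0 counts in sham + v and OVX + v, and the median summed levels were 503, 792, 465 and 1161 CPM. The part of these differences in the results below was not tested. In whole tissue, fewer cells of a type and less RNA per cell cannot be told apart. The labels do not say whether libraries came from separate mice, so p-values measure the spread between libraries only, and the limit of 3 counts covers counting error only.

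**Figure D2:**
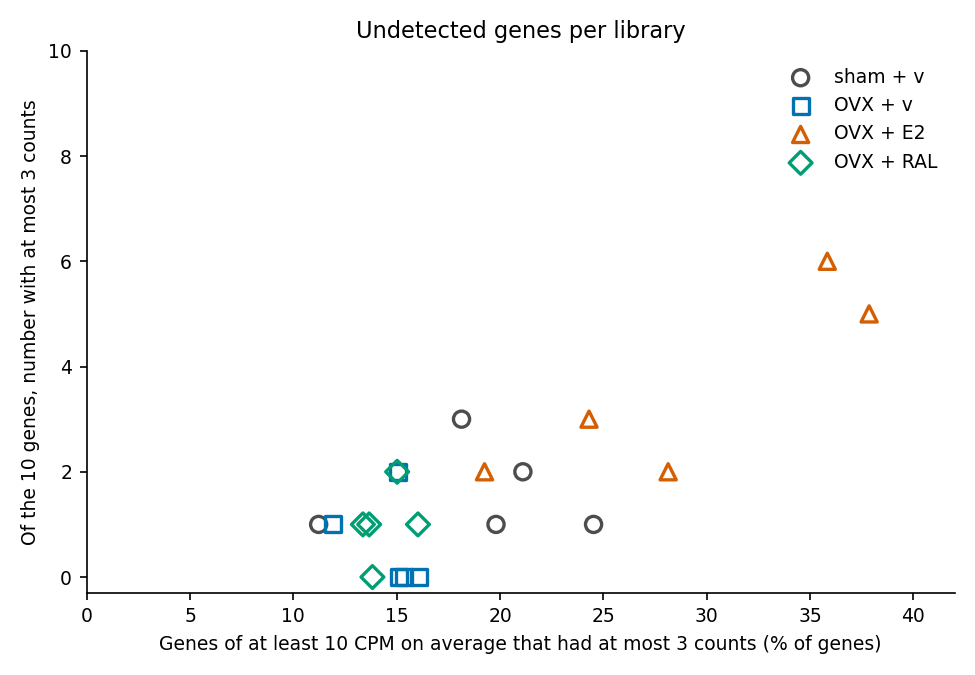
Each symbol is 1 library. The x axis gives the percentage of the 9533 genes that had at most 3 counts, and the y axis how many of the 10 genes had at most 3 counts. Libraries 13 and 14 of the OVX + E2 group lie at the upper right with 6 and 5 of the 10 genes, *Mettl16* among them in both.

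*Mettl16* (ENSMUSG00000010554, chr11:74661656-74719351, plus strand, 10 exons) was nearly absent from the OVX + E2 group and present in every OVX + v and OVX + RAL library. Libraries 11 to 15 of the OVX + E2 group had 1, 0, 0, 0 and 3 counts. The OVX + v libraries had 37, 35, 129, 188 and 22 counts, and the OVX + RAL libraries had 25, 37, 127, 44 and 50. The sham + v libraries had 70, 24, 0, 2 and 37 counts, so that 2 of these 5 were also at or under 3. The OVX + E2 values overlapped those of the sham + v group and lay below all values of the OVX + v and OVX + RAL groups.

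In CPM, the *Mettl16* level was 14.5 ± 14.8 in sham + v, 45.3 ± 35.4 in OVX + v, 0.554 ± 0.913 in OVX + E2 and 30.9 ± 24.8 in OVX + RAL (mean ± SD, n = 5 each). At the OVX + v mean, the OVX + E2 libraries would have given between 50.9 and 68.3 counts each. That mean was raised by libraries 8 (73.1 CPM) and 9 (93.1 CPM), while the other OVX + v libraries had 15.3 to 23.0 CPM. Sham + v libraries 3 and 4 also had only 0 and 2 counts. The figure uses the values that *Mettl16* was chosen on, and nothing is read from it. *Mettl16* was 1 of the 92 genes (0.672% of 13695 tested) that were lower in every OVX + E2 library than in every OVX + v library, and since it was chosen on these values nothing is read from this.

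In sham + v and in OVX + RAL against OVX + v, *Mettl16* did not pass the test. The log2 fold change in the sham + v group against the OVX + v group was -1.64 ± 1.29 (SE), with an adjusted p of 0.985 from edgeR's quasi-likelihood test. For OVX + RAL the value was -0.55 ± 0.92, and its 95% interval ran from -2.36 to 1.25. With 1 library left out, the OVX + RAL value lay between -1.18 and -0.11. Both comparisons, and that of the OVX + E2 group, use the same 5 OVX + v libraries, so neither is independent of the comparison that *Mettl16* was chosen on. By mean level the order of the groups was OVX + v, OVX + RAL, sham + v and OVX + E2, and each group overlapped its neighbour in this order.

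**Figure D3:**
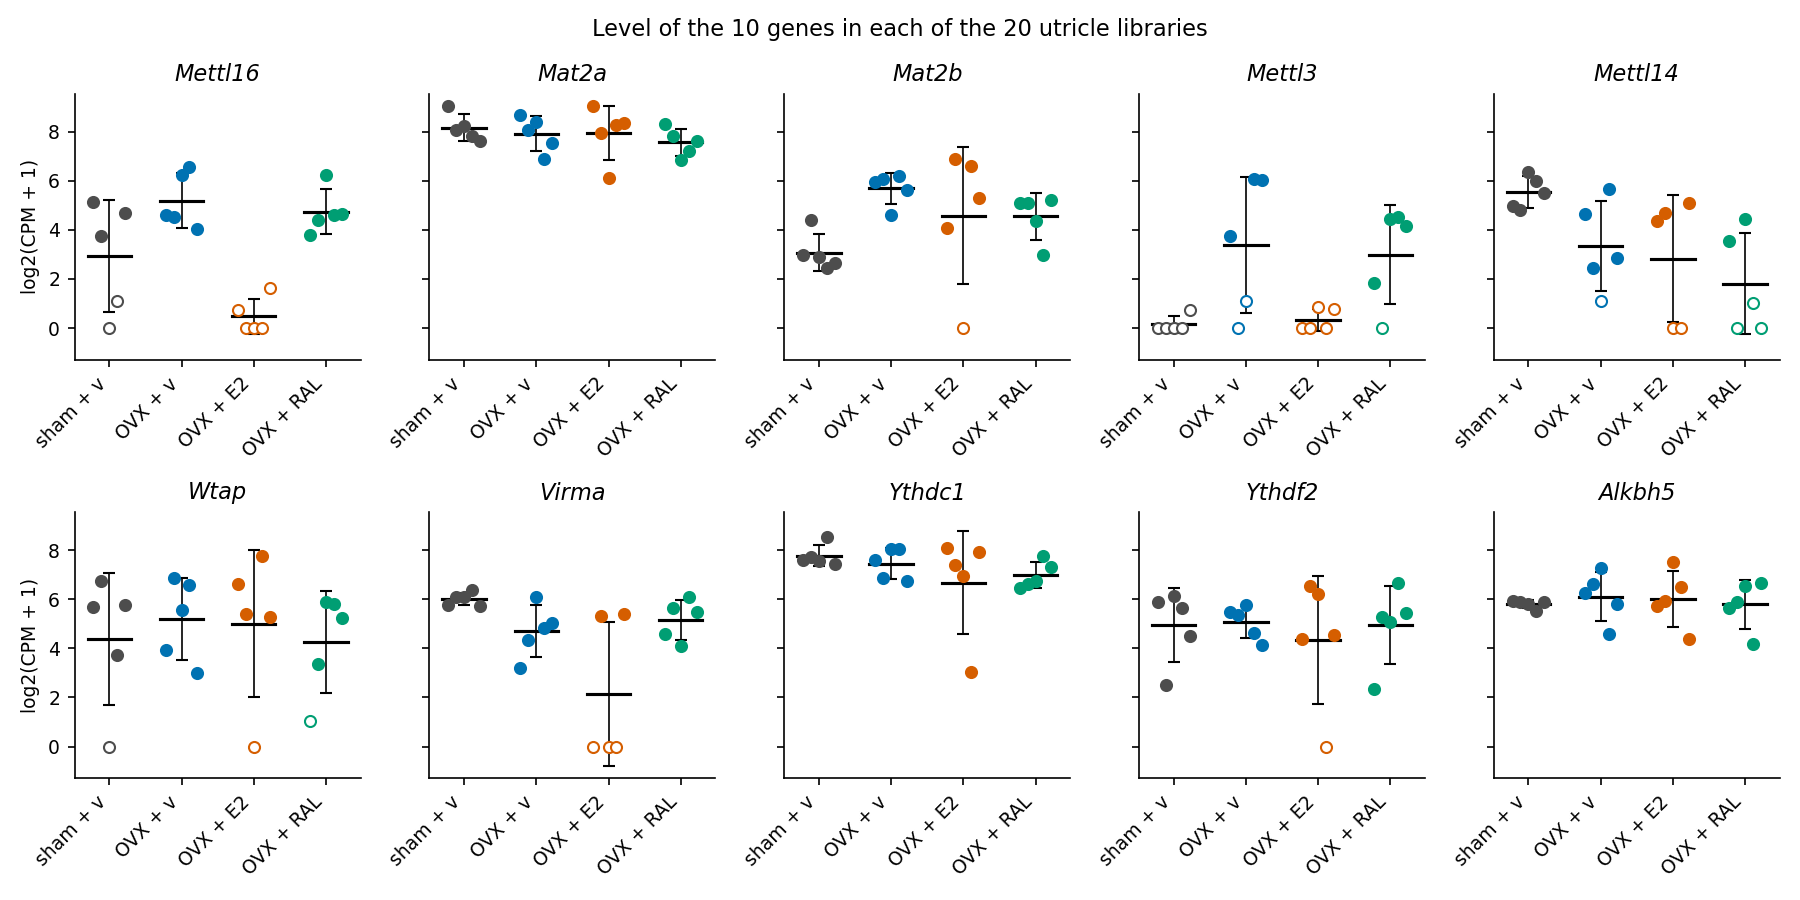
Level of each of the 10 genes, as log2(CPM + 1), in the 4 groups of 5 libraries. Each circle is 1 library, open where the gene had at most 3 counts, with a line at the mean and bars of 1 SD. *Mettl16* has 5 open circles in OVX + E2, and *Mettl3* has 5 in each of sham + v and OVX + E2.

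*Mat2a* (ENSMUSG00000053907, chr6:72409782-72416541, minus strand, 9 exons), which encodes the SAM synthetase subunit and carries the hairpins shown above, was counted in all 20 libraries with 85 to 1090 reads, and no difference between groups passed the test. The sham + v libraries had 531, 263, 296, 224 and 196 CPM. The OVX + v libraries had 403, 270, 334, 118 and 185 CPM. The OVX + E2 libraries, in which *Mettl16* was nearly absent, had 520, 242, 68.1, 311 and 325 CPM. The OVX + RAL libraries had 316, 224, 113, 147 and 194 CPM. The 4 groups overlapped throughout, and the lowest value was that of library 13, one of the libraries with many undetected genes.

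The mean *Mat2a* level was 302 ± 134 CPM in sham + v, 262 ± 114 in OVX + v, 293 ± 163 in OVX + E2 and 199 ± 78.0 in OVX + RAL (SD, n = 5 each). For OVX + E2 against OVX + v the log2 fold change was 0.16 ± 0.38 (SE), with a 95% interval of -0.58 to 0.91. This interval was the narrowest of the 9 genes other than *Mettl16* in this comparison, and allows differences of the fold change on either side of 0. With 1 library left out it ran from -0.15 (without library 11) to 0.42 (without library 13). Without libraries 13 and 14, which were left out after the data had been seen, the log2 fold change was 0.47. When all 20 libraries were fitted together and the OVX + E2 mean was set against that of the 3 others, *Mat2a* in the OVX + E2 group differed by 0.23 ± 0.31 (interval -0.38 to 0.84). The intervals were -0.44 to 0.85 for sham + v against OVX + v and -1.07 to 0.28 for OVX + RAL against OVX + v. The last exon of *Mat2a* overlaps the gene *Ggcx* on the opposite strand, which had 619 counts in all 20 libraries together.

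The relation of *Mettl16* and *Mat2a* over libraries was tested in the 15 libraries outside the OVX + E2 group. On log2(CPM + 1), Pearson's r was -0.25 (permutation p = 0.369) and Spearman's rho was -0.28 (permutation p = 0.315), each two-sided with 100000 resamples. It was the only relation tested, so no adjustment was needed. With values centred on their group means r was -0.13 (permutation p = 0.652). Without libraries 3 and 4, the 2 farthest from the median *Mettl16* level, r was -0.33 (permutation p = 0.269, n = 13). No relation of the levels was detected in these libraries, and the labels name no batch of libraries.

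**Figure D4:**
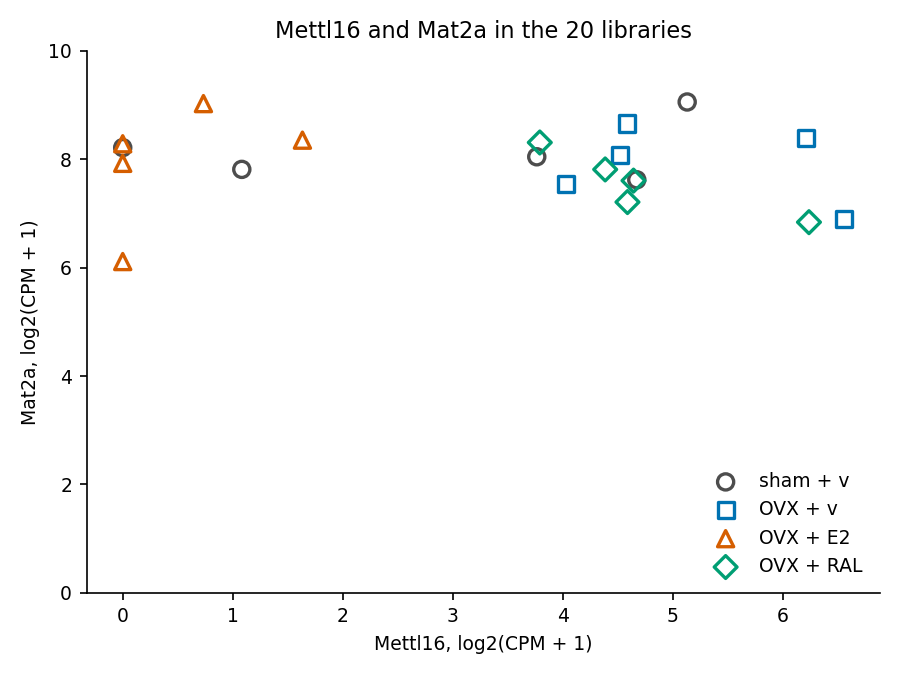
Each symbol is 1 of the 20 libraries, with *Mettl16* on the x axis and *Mat2a* on the y axis, both as log2(CPM + 1). The 5 OVX + E2 libraries lie at the left together with 2 sham + v libraries, and 4 of them are at *Mat2a* levels of the same range as the libraries of the other groups.

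*Mat2b* (ENSMUSG00000042032, chr11:40570141-40586030, minus strand, 7 exons), the regulatory partner of *Mat2a*, was lower in every sham + v library than in every OVX + v library. The sham + v libraries had 6.82, 19.9, 6.52, 4.47 and 5.31 CPM, and the OVX + v libraries had 60.4, 65.9, 23.2, 72.3 and 48.8 CPM. The means were 8.61 ± 6.40 and 54.1 ± 19.3 CPM (SD, n = 5 each). The log2 fold change was -2.64 ± 1.30 (SE), with an unadjusted p of 0.0419 and an adjusted p of 0.363 from edgeR, so that it did not pass the threshold of 0.05 over all genes. Of the 13825 genes tested, 41 (0.297%) were lower in every sham + v library than in every OVX + v library, and 28 (0.203%) were higher in every one. *Mat2b* was 1 of the 41, and 0 of the 10 genes were among the 28. In the OVX + E2 libraries *Mat2b* had 15.9, 116, 0, 96.2 and 37.9 CPM, which spans the levels of both groups. In the OVX + RAL libraries it had 33.4, 32.9, 19.4, 6.82 and 36.0 CPM, with a log2 fold change of -1.07 ± 0.89 (SE) against OVX + v.

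*Mettl3* (ENSMUSG00000022160, chr14:52532298-52542585, minus strand, 11 exons), the catalytic subunit of the main m6A writer, was not detected in any sham + v or OVX + E2 library. The sham + v libraries had 0, 0, 0, 0 and 1 counts, and the OVX + E2 libraries had 0, 0, 1, 0 and 1. The OVX + v libraries had 20, 0, 2, 133 and 91 counts, and the OVX + RAL libraries had 5, 0, 35, 42 and 35. *Mettl3* was thus detected in 3 of 5 OVX + v and 4 of 5 OVX + RAL libraries, and every group overlapped the others at the bottom of the range.

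Between OVX + v libraries the SD of *Mettl3* was larger than its mean, with 28.6 ± 33.3 CPM (SD, n = 5). The fitted log2 fold change was -7.20 ± 2.55 (SE) for sham + v, with an unadjusted p of 0.00481 and an adjusted p of 0.363 from edgeR. For OVX + E2 it was -6.22 ± 2.68, with an unadjusted p of 0.0203 and an adjusted p of 0.351. Neither passed the threshold. The size moved with the method, and over the alternatives it ran from -8.66 to -3.24 for sham + v and from -6.78 to -3.06 for OVX + E2. The last exon of *Mettl3* overlaps the gene *Tox4* on the opposite strand, and the strand setting of the counting was not given in the sources used here. *Tox4* itself had 0 to 176 counts in sham + v, 2 to 138 in OVX + v, 6 to 103 in OVX + E2 and 12 to 155 in OVX + RAL.

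*Mettl14* (ENSMUSG00000028114, chr3:123161946-123179757, minus strand, 11 exons), which forms the core of the writer with METTL3, was detected in every sham + v library. The sham + v libraries, with at most 1 count of *Mettl3*, had 63, 52, 136, 113 and 67 counts of *Mettl14*. The OVX + v libraries had 38, 7, 2, 101 and 9, the OVX + E2 libraries 29, 33, 0, 0 and 47, and the OVX + RAL libraries 21, 0, 35, 2 and 0. The mean was highest in sham + v (49.2 ± 22.5 CPM) and lowest in OVX + RAL (6.48 ± 9.09 CPM). The log2 fold change of sham + v against OVX + v was 1.52 ± 1.20 (SE; interval -0.83 to 3.87), and *Mettl14* passed in none of the 3 comparisons with OVX + v. With 1 library left out, the sham + v value ran from 1.22 to 2.46, the highest being that without library 9. Both zeros in the OVX + E2 group were libraries 13 and 14. Without them the log2 fold change of that group was 0.58, against -0.15 with them.

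*Virma* (ENSMUSG00000040720, chr4:11485958-11550684, plus strand, 24 exons), the scaffold of the writer complex, had 0 counts in 3 of the 5 OVX + E2 libraries and was detected in all of the other 15. The OVX + E2 libraries had 0, 51, 0, 0 and 58 counts, and the OVX + v libraries had 13, 31, 117, 56 and 46. The sham + v libraries had 79 to 145 counts and the OVX + RAL libraries 27 to 126. The mean level was 64.0 ± 11.7 CPM in sham + v, 30.7 ± 21.9 in OVX + v, 15.8 ± 21.7 in OVX + E2 and 39.5 ± 20.2 in OVX + RAL. For OVX + E2 against OVX + v the log2 fold change was -0.95 ± 1.73 (SE). It was -0.22 without libraries 13 and 14, and -4.51 by limma on log2(CPM + 0.1). Against the mean of the other 3 groups it was -1.42 ± 1.06, with an adjusted p of 0.792 from edgeR, and by limma on log2(CPM + 0.1) it was -5.12.

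*Wtap* (ENSMUSG00000060475, chr17:13185683-13213056, minus strand, 8 exons), the adaptor that brings the complex to nuclear speckles, varied as much within groups as between them. Its counts ran from 0 to 201 in sham + v, from 10 to 190 in OVX + v, from 0 to 242 in OVX + E2 and from 2 to 105 in OVX + RAL. The mean was 44.2 ± 41.4, 55.7 ± 48.4, 78.3 ± 84.3 and 31.9 ± 25.9 CPM in these groups. The log2 fold change against OVX + v was -0.33 in sham + v, 0.49 in OVX + E2 and -0.81 in OVX + RAL, with standard errors of 0.88, 0.88 and 0.85. The sham + v value turned to 0.13 without library 7, and was -1.44 by limma on log2(CPM + 0.1). The OVX + E2 value turned to -0.34 without library 14, which had the 242 counts, and to -0.80 by limma on log2(CPM + 0.1), and was 0.07 without libraries 13 and 14. The last exon of *Wtap* overlaps *Gm64816* on the opposite strand, which has no row in the count tables used here.

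The readers *Ythdc1* and *Ythdf2* also passed in no comparison. *Ythdc1* (ENSMUSG00000035851, chr5:86952080-86984518, plus strand, 17 exons), whose product binds m6A in the nucleus, had 262 to 654 counts in sham + v libraries, 151 to 525 in OVX + v, 8 to 409 in OVX + E2 and 169 to 406 in OVX + RAL. The value of 8 was that of library 14. Its log2 fold change against OVX + v was 0.27 ± 0.38 in sham + v, -0.21 ± 0.48 in OVX + E2 and -0.50 ± 0.39 in OVX + RAL (SE). The OVX + RAL value had an adjusted p of 0.961 from edgeR. The OVX + E2 value turned to 0.10 without library 14 and to 0.27 without libraries 13 and 14, and was -0.81 by limma on log2(CPM + 0.1). *Ythdf2* (ENSMUSG00000040025, chr4:131912223-131939614, minus strand, 5 exons), whose product promotes decay of methylated mRNA, had 9 to 120, 24 to 94, 0 to 123 and 8 to 188 counts in the same order of groups. Its means lay between 35.3 ± 14.8 CPM in OVX + v and 43.0 ± 34.5 CPM in OVX + RAL, and its log2 fold changes against OVX + v were 0.21, 0.24 and 0.29, with standard errors of 1.06, 1.28 and 0.90. The sign turned in 3, 4 and 3 of the alternatives, where the lowest values were -0.16, -1.38 and -0.28.

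*Alkbh5* (ENSMUSG00000042650, chr11:60427207-60449338, plus strand, 4 exons), the eraser among the 10 genes, was detected in every library. It had 80 to 122 counts in sham + v, 47 to 273 in OVX + v, 28 to 229 in OVX + E2 and 33 to 208 in OVX + RAL. The sham + v values were close together, at 55.1 ± 6.06 CPM, while the SD was 49.4 CPM around a mean of 80.5 in OVX + v and 62.4 CPM around a mean of 81.0 in OVX + E2. The log2 fold changes against OVX + v were -0.55 ± 0.71 in sham + v, 0.01 ± 0.77 in OVX + E2 and -0.35 ± 0.60 in OVX + RAL (SE). Without libraries 13 and 14 the value for OVX + E2 was -0.87.

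Leaving *Mettl16* aside wherever OVX + E2 libraries were used, no member passed an adjusted p of 0.05 in any comparison by edgeR. In sham + v against OVX + v, 0 of 10 passed, where 2 of all 13825 genes did (0.0145%), and 2 of 10 had an unadjusted p under 0.05 (*Mat2b* and *Mettl3*, both lower), against 12.5% of all genes. In OVX + E2 against OVX + v, 0 of the 9 genes other than *Mettl16* passed, where 8 of 13695 genes did (0.0584%), and 1 of 9 had an unadjusted p under 0.05 (*Mettl3*, lower), against 13.9%. In OVX + RAL against OVX + v, 0 of 10 passed, where 4 of 14002 genes did (0.0286%), and 0 of 10 had an unadjusted p under 0.05, against 12.1%. In OVX + E2 against the mean of the other groups, 0 of 9 passed, where 258 of 14870 genes did (1.74%), and 0 of 9 had an unadjusted p under 0.05, against 11.1%. That 258 fell to between 11 and 20 genes when any library outside OVX + E2 was left out, and to 16 with the non-legacy form of the fit, which was added after the data had been seen. By DESeq2 the members at an unadjusted p under 0.05 in these 4 comparisons were 2, 1, 0 and 1, where 4.95%, 5.24%, 5.05% and 7.18% of all genes were. By limma on log2(CPM + 1) they were 3, 0, 0 and 1, where 4.27%, 5.46%, 4.57% and 8.62% of all genes were. *Mettl16* is not counted in these where OVX + E2 libraries were used. None of these passed after adjustment.

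The genes whose groups did not overlap were counted in the same way. In the OVX + E2 comparison 22 of all genes (0.161%) were higher in every OVX + E2 library, and 0 members were among them. In the OVX + RAL comparison 44 genes (0.314%) were lower and 37 (0.264%) higher in every library, and 0 members were among either. The median log2 fold change of the members was -0.06 in sham + v, against -0.02 over all genes tested. It was -0.02 in OVX + E2 without *Mettl16*, against -0.06, and -0.53 in OVX + RAL, against -0.03. In OVX + RAL, 8 of the 10 genes were below 0, as were 7243 of all 14002 genes. Scaling by TMM (trimmed mean of M-values) moved the median of all genes in the OVX + E2 comparison from -0.06 to -0.17, and on the scales of limma it was -0.46 with log2(CPM + 1) and -0.74 with log2(CPM + 0.1).

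**Figure D5:**
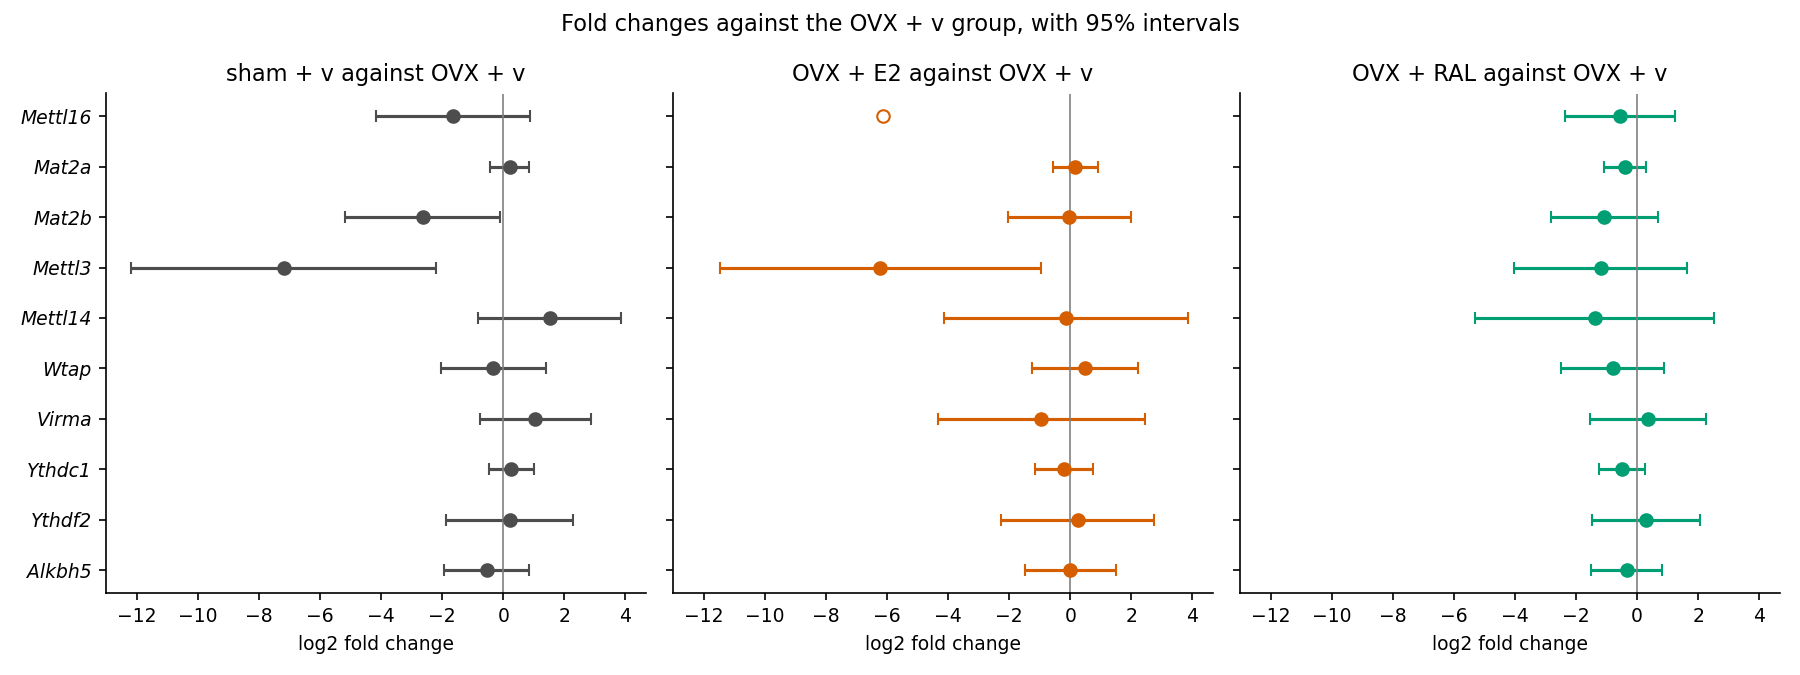
Log2 fold change of the 10 genes in sham + v, OVX + E2 and OVX + RAL against OVX + v from edgeR, with bars of the 95% interval. *Mettl16* in OVX + E2 is an open circle without a bar, since it was chosen on these values. The intervals of *Mat2a* and *Ythdc1* are the narrowest and include 0 in all 3 panels, and those of *Mettl3* and *Mat2b* in sham + v and *Mettl3* in OVX + E2 do not include 0 before adjustment.

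A wider list of 41 genes of the same processes held other writers and cofactors, the eraser *Fto*, other readers, enzymes of the SAM cycle, splicing and polyadenylation factors of *Mat2a*, and partners of U6 small nuclear RNA. *Mat1a* and *Nnmt*, a SAM synthetase and a SAM-consuming enzyme of the liver, had 0 counts in all 20 libraries and were named after this was seen. Of the 38 or 39 genes that could be tested, 0 passed an adjusted p of 0.05 in each of the 4 comparisons by edgeR. At an unadjusted p under 0.05 there were 2 in each, where 12.5%, 13.9%, 12.1% and 11.1% of all genes were. These were *Igf2bp3* (higher) and *Ahcyl2* (lower) in sham + v, *Igf2bp3* and *Bhmt* (both higher) in OVX + E2 and again in OVX + RAL, and *Bhmt* (higher) and *Mtr* (lower) in OVX + E2 against the mean of the other groups, all named after their values were seen.

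*Igf2bp3*, an m6A reader, had counts in 1 sham + v library (56), 1 OVX + E2 library (49) and 1 OVX + RAL library (36), and none in OVX + v. *Bhmt*, which remethylates homocysteine to methionine, was above 3 counts in 2 of 5 OVX + E2 libraries and in 3 of 5 OVX + RAL libraries, and had 0 counts in all sham + v and OVX + v libraries. *Mtr*, methionine synthase, had 5.49 ± 10.1 CPM in OVX + E2, where it was detected in 2 of 5 libraries, against 26.0 ± 25.4 CPM in OVX + v, where it was detected in all 5. Its level was 60.8 ± 63.4 CPM in sham + v and 31.3 ± 23.6 CPM in OVX + RAL. The log2 fold change of *Mtr* in OVX + E2 was -2.73 ± 1.31 (SE) against the mean of the other groups. Against OVX + v alone it was -2.23 ± 2.17 (SE). *Ahcyl2*, a relative of S-adenosylhomocysteine hydrolase, had 91.3 ± 36.3 CPM in sham + v and 184 ± 87.8 CPM in OVX + v, a log2 fold change of -1.01 ± 0.46 (SE), with an adjusted p of 0.363.

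In OVX + E2 against OVX + v, 7 of 9 other writers and cofactors, 4 of 11 readers, 5 of 9 SAM cycle enzymes, 3 of 5 splicing and polyadenylation factors and 0 of 4 U6 partners had a log2 fold change above 0, as did *Fto* and 6499 of all 13695 genes. The medians of these 5 groups were 0.36, -0.25, 0.37, 0.01 and -0.82. The U6 partners *Larp7*, *Mepce*, *Lsm2* and *Lsm8* were 3 of 4 below 0 in sham + v and in OVX + RAL as well, with medians of -0.24 and -0.33, and none had an unadjusted p under 0.05 in any comparison. *Larp7*, the chaperone that guides modification of U6, had the lowest value of the 4 in OVX + E2, -2.15 ± 1.55 (SE), and was named after its value was seen. It was detected in 2 of 5 OVX + E2 libraries and in 4 of 5 OVX + v libraries. The median over the whole wider list was 0.07 in sham + v, 0.01 in OVX + E2 and 0.02 in OVX + RAL (all genes -0.02, -0.06 and -0.03).

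The genes whose levels were most like those of *Mettl16* over the 20 libraries, by Spearman's rho on log2(CPM + 1) among the 9532 other genes with a mean of at least 10 CPM, were *Sac3d1* (0.80), *Cdkl4* (0.77), *Slc17a8* (0.75), *Brpf1* (0.74) and *Nsun6* (0.73). Over all 9532 genes rho ran from -0.75 to 0.80 with a median of 0.06. The libraries share their depth and their undetected genes, so these values are descriptions. They also include the OVX + E2 values that *Mettl16* was chosen on, which favours genes undetected in that group. *Nsun6* had 0 counts and *Cdkl4* at most 0.802 CPM in the OVX + E2 libraries, while *Brpf1* reached 27.4 CPM there. Of the other members, *Mettl3* stood nearest with 0.56, in place 137, and *Mat2a* had -0.16, in place 7760. The other 7 lay between 0.02 and 0.27.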

How the data were processed

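As the study describes it, utricle RNA (1 ng per library) was made into 3′ mRNA libraries and read for 75 cycles, and no counting of molecular identifiers is described. Reads were trimmed by 12 nucleotides, those under 20 nucleotides were dropped, and the rest were mapped to GRCm39 and counted in CLC Genomics Workbench. The deposited total counts are the authors' raw counts of reads per gene. The first of 3 stacked tables of 1 deposited file was used, and the OVX + v counts are the same in each table. There were 0 columns of samples from outside the series. The deposited normalized columns and the authors' own comparisons (fold changes, p-values and adjusted p-values) were not used.

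CPM was taken over the total count of a library. Groups were compared with edgeR 4.0.16 (estimateDisp, glmQLFit and glmQLFTest in R 4.3.3) on genes with at least 10 summed counts, with the total count as library size. Benjamini-Hochberg adjustment ran over all genes tested, with a threshold of 0.05. Each comparison with OVX + v used its 10 libraries, and the contrast of OVX + E2 with the mean of the other groups used all 20. Standard errors were obtained by dividing the absolute log2 fold change by the square root of F. DESeq2 1.42.0 and limma 3.58.1 served as alternatives, with TMM, other filters, other forms of the fit and each library left out. Python 3.11.15 with scipy 1.17.1 was used for the rest. The scripts were tested on simulated data, and 0 of 40 pairs of replicates had identical counts.

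The members, the wider list and the markers were chosen with earlier results of these data known. By rule the text names all members, the 5 genes most like *Mettl16* and any gene of the wider list past the threshold, of which there were 0. Markers, genes that overlap a member and further genes of the wider list were named outside this rule, after their values were seen. No library was without a group.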

Additional observations from a re-analysis of the deposited data

Results flagged for a closer look

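In groups of 5, a library was marked where its gap to the nearest other value took up more of the range than Dixon's 95% limit allows. This was so for 4 of the 40 groups of the 10 genes, each time for the highest value. The limit marks about 1 in 20, or 2, where values are normally distributed. That was not checked for these CPM values, which hold zeros, so no excess is read from the 4. *Mettl16* in OVX + RAL library 18 was 74.6 CPM (127 counts), while the other 4 libraries had 12.9 to 24.0 CPM. *Mat2b* in sham + v library 2 was 19.9 CPM, with 4.47 to 6.82 CPM in the others. *Mettl3* in sham + v library 5 was 0.663 CPM, which is 1 count against 0 in the others and is not above the limit of detection. *Ythdc1* in sham + v library 4 was 366 CPM, with 174 to 208 CPM in the others.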

How the results depend on the processing

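None of the 9 members other than *Mettl16* passed an adjusted p of 0.05 in any of the alternatives run. *Mettl16* passed in none of those for sham + v and OVX + RAL, and was not counted where OVX + E2 libraries were used, since it was chosen on them. The smallest adjusted p over the alternatives was 0.0896 for *Mettl3* and 0.241 for *Mat2b* in sham + v, 0.0984 for *Mettl3* in OVX + E2, and 0.0905 for *Virma* in OVX + E2 against the mean of the other groups. *Mettl3* and *Virma* kept the sign of their log2 fold change in all 4 comparisons. Over all 10 genes, the sign changed in at least 1 alternative for 3 genes in sham + v, 7 in OVX + E2, 2 in OVX + RAL and 6 in OVX + E2 against the mean of the other groups. For *Mat2a* in OVX + E2 against OVX + v the log2 fold change ran from -0.15 to 0.47. The default filter of edgeR left *Mettl3* untested in sham + v and in OVX + E2. The correlation of *Mettl16* with *Mat2a* was -0.23 on log2(CPM + 0.1) and -0.23 with TMM, and neither passed 0.05. Over all 20 libraries, which include the values that *Mettl16* was chosen on, it was -0.10, given as a description.

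The count of all genes called moved more. In sham + v against OVX + v it was 2, and 1 with TMM, 12 with DESeq2, 0 with the default filter, 0 with robust glmQLFit, 1 with the non-legacy form, 4 with limma on log2(CPM + 1), 0 on log2(CPM + 0.1), and 1 to 10 with 1 library left out (10 without library 1). In OVX + E2 against OVX + v it was 8, and 38 with DESeq2, 1 with the default filter, 4 with robust glmQLFit, 3 with limma on log2(CPM + 0.1), and 6 to 17 with 1 library left out (17 without library 11). In OVX + RAL against OVX + v it was 4, and 0 with the default filter, robust glmQLFit and limma on log2(CPM + 0.1), 7 with the non-legacy form, and 3 to 11 with 1 library left out (11 without library 16, 9 without 20, 8 without 7 or 18). For OVX + E2 against the mean of the other groups it was 258, and 149 with DESeq2, 2 with the default filter, 16 with the non-legacy form, 6 and 9 with limma, 151 without libraries 13 and 14, and 11 to 254 with 1 library left out, where leaving out any library outside OVX + E2 gave 11 to 20. The cause was not tested. The non-legacy form and the removal of libraries 13 and 14 together were added after the data had been seen, and the planned legacy form equals the fit reported. No paired analysis was run, because the labels give no pairing of libraries between groups.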
